A study of Mus musculus with 8 samples.

Results

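The AP-1 and immediate early factors are 10 genes named by symbol in the gene count table: Fos, Fosb, Fosl1, Fosl2, Jun, Junb, Jund, Atf3, Maff and Egr1. All 10 were found among the 54532 genes of the table, and all 10 passed the filter on low counts that left 18511 genes to test. The samples are whole 4T1 tumors, a mouse triple-negative breast cancer line grown under the skin of female BALB/cJ mice that were 6 weeks old when the cells were injected. The control group (n = 4) received saline, which another field of its labels calls PBS. The other group (n = 4) received mAb-DXd/IMQ at 16 mg/kg, a humanized antibody to CD276 that carries both DXd, a topoisomerase I inhibitor, and an imidazoquinoline (IMQ), an agonist of Toll-like receptors. Per the study's methods, doses were given into the tail vein every 4 days for 5 courses, both groups carried luciferase-labelled 4T1 cells, and tumors were taken at the end of the study, so the hours between last dose and collection are not stated. The tumors come from 1 cell line in 1 host strain, and each sample mixes cancer cells with host cells.

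Immediate early genes are switched on within minutes of a signal, without new protein synthesis, and their messages are short-lived. Fos and Jun proteins pair through leucine zippers to form AP-1, which binds the motif TGANTCA, while growth factors and stress raise Fos and Egr1 through kinases that act on serum response factor and CREB. In breast carcinoma AP-1 is best known for genes of proliferation, matrix breakdown and wound-like responses.

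The carcinoma label was checked against markers given as CPM, counts divided by the library size after scaling by the trimmed mean of M-values (TMM). Epcam lay between 193 and 701 CPM, Krt8 between 493 and 887 CPM and Krt18 between 590 and 971 CPM over the 8 tumors. Of the receptors that the triple-negative label speaks to, Pgr stayed at or under 0.808 CPM, Esr1 was between 13.6 and 20.6 CPM, and Erbb2 was between 74.3 and 118 CPM, so Erbb2 RNA was present in every tumor.

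No member passed the thresholds between mAb-DXd/IMQ and saline (edgeR, adjusted p under 0.05 and absolute log2 fold change over 0.58). That is 0 of 10, where 1.06% of all tested genes passed, 101 higher and 96 lower. The split depends on scaling, with 145 higher and 73 lower under upper quartile factors and 118 and 76 with library totals alone. The count over all genes, 197, was 10 without saline 3, 11 without saline 4, 12 without treated 4, 76 without treated 2, 88 without treated 3 and 111 without saline 2. DESeq2 and limma-trend also gave 0 of 10 members, each with 2 at unadjusted p under 0.05. In edgeR, without adjustment, 3 members (Fosl2, Junb and Egr1) had p under 0.05, all 3 lower with treatment, where 9.79% of tested genes were lower at that level and 18.9% reached it in either direction. That count of 3 was 6 without saline 1, 5 without saline 2 or with no filter on low counts, and 1 without saline 4, treated 3 or treated 4. The fold change was below 0 for 9 members and above 0 for Fosl1, with a median log2 fold change of -0.31 against 0.022 over all tested genes. The median was -0.16 without saline 4 and -0.14 without saline 3 and saline 4, and 7 to 10 members lay below 0 over the alternatives. These directions rest in part on a few saline tumors, as the values below show.

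Saline tumor 4 stood apart. It held the highest value of all 8 tumors for 6 of 10 members (Fos, Fosb, Fosl2, Jun, Junb and Egr1), where it held the highest value for 8.02% of tested genes. Saline tumor 1 held the highest value for the remaining 4 members (Fosl1, Jund, Atf3 and Maff) and for 14.2% of tested genes, and no treated tumor was highest for any member. The 10 members summed to 889, 732, 965 and 1564 CPM in saline tumors 1 to 4 and to 827, 759, 593 and 712 CPM in mAb-DXd/IMQ tumors 1 to 4. Saline 4 was also the deepest library, with 69582375 counts, followed by saline 3 with 56388627, and the part of depth in these levels was not tested. Some values below are also given without these libraries.

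**Figure D1:**
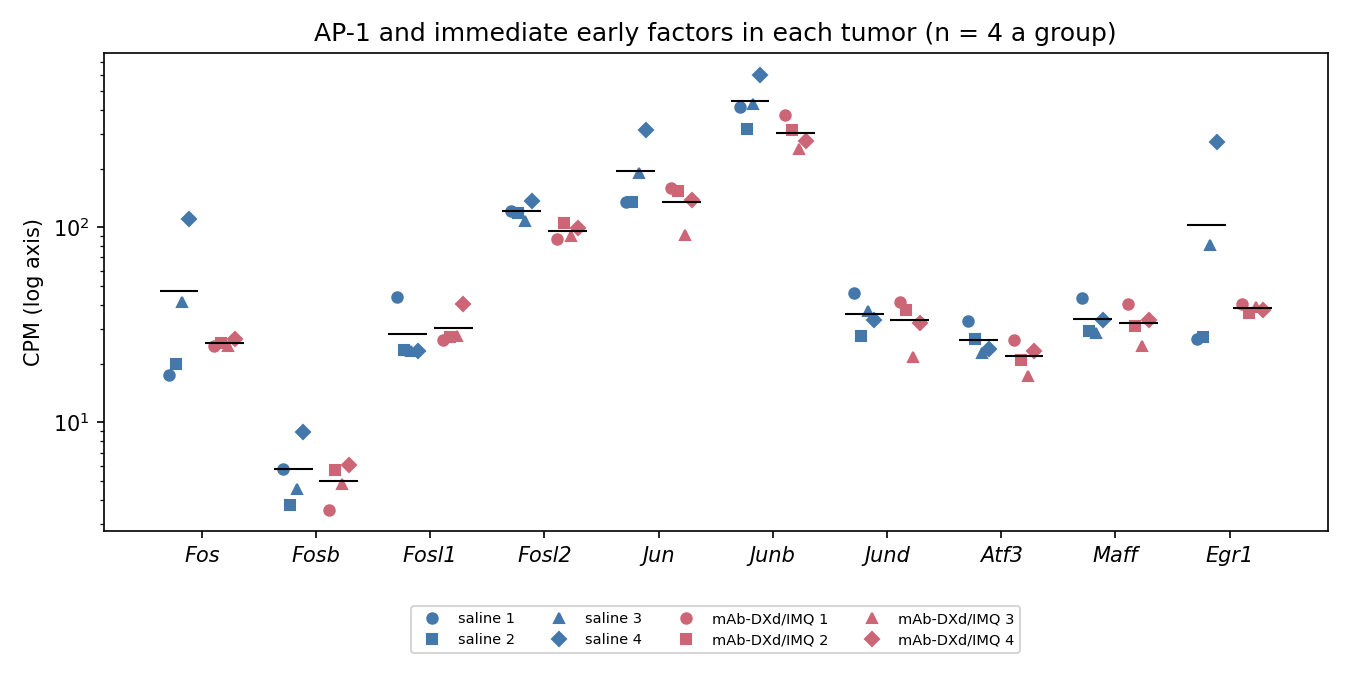
Level of each member (CPM, log axis) in the 4 saline tumors (blue) and the 4 mAb-DXd/IMQ tumors (red), 1 symbol per tumor number, with black lines at group means. Saline 4 (blue diamond) is far above the others for Fos (111 CPM) and Egr1 (273 CPM), while the 4 treated tumors lie close together for both.

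Fos is the founding member of the family and cannot pair with itself, so it works with a partner such as a Jun protein. Its level was 17.4, 19.9, 41.4 and 111 CPM in saline tumors 1 to 4 and 24.5, 25.6, 24.6 and 26.8 CPM in treated tumors 1 to 4. Saline 3 and saline 4 were above every treated tumor, saline 1 and saline 2 were below every treated tumor, and the groups overlap. The highest saline tumor was 6.37 times the lowest, and the highest treated tumor 1.09 times the lowest. The log2 fold change was -0.90 (SE 0.48, adjusted p 0.338), which came to -0.044 (SE 0.26, adjusted p 0.96) without saline 4. With both saline 3 and saline 4 left out, an alternative chosen after seeing the data, it turned to 0.44 (SE 0.17, adjusted p 0.463).

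Egr1, a zinc finger factor outside the leucine zipper family that shares the upstream kinases of Fos, showed the same layout. Its level was 26.9, 27.5, 81.3 and 273 CPM in saline tumors 1 to 4 and 40.6, 36.3, 39.0 and 37.6 CPM in treated tumors 1 to 4. Again saline 3 and saline 4 were high, saline 1 and saline 2 were the lowest of the 8, and the groups overlap. Its log2 fold change of -1.41 (SE 0.62, adjusted p 0.246) became -0.23 (SE 0.34, adjusted p 0.807) without saline 4 and 0.50 (SE 0.15, adjusted p 0.394) without saline 3 and saline 4. With all tumors kept, limma-trend gave -0.73 for Egr1 and -0.49 for Fos, and a replicate block gave -0.68 and -0.47.

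The spread among saline tumors, as the SD of log2 CPM, was 1.22 for Fos and 1.59 for Egr1, above that of 96.8% and 98.8% of tested genes. Among treated tumors it was 0.060 for Fos and 0.069 for Egr1, above only 1.56% and 2.23% of tested genes. Medians over all tested genes were 0.23 in saline and 0.30 in treated tumors, so for these 2 genes the spread went the other way from the typical gene. It did so too, by less, for Jun (0.58 and 0.37), Fosb, Fosl1, Fosl2 and Junb. Jund, Atf3 and Maff had the wider spread in treated tumors. These differences in spread were seen in the data first and were not tested.

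Across the 8 tumors, log2 CPM of Fos and Egr1 gave Pearson r = 0.994 (exact permutation p = 0.000893, adjusted 0.00804 over 9 relations of Fos with the other members) and Spearman rho = 0.786 (exact permutation p = 0.0279, adjusted 0.251). Without saline 4 and saline 3, the 2 tumors farthest from the median of Fos, r was 0.910. That value sets saline 1 and saline 2, low for both genes, against the treated tumors. Within groups r was 0.994, with saline 3 and saline 4 included. Among treated tumors the 2 genes did not rise together: in treated 1 Fos was lowest (24.5 CPM) and Egr1 highest (40.6 CPM). Jun gave r = 0.854 with Fos (exact permutation p = 0.0125, adjusted 0.0563) and rho = 0.690 (exact permutation p = 0.0694, adjusted 0.312). That relation rests on saline 3 and saline 4, since r was -0.0062 without them. None of the other 7 relations had an adjusted p under 0.05 by either measure.

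**Figure D2:**
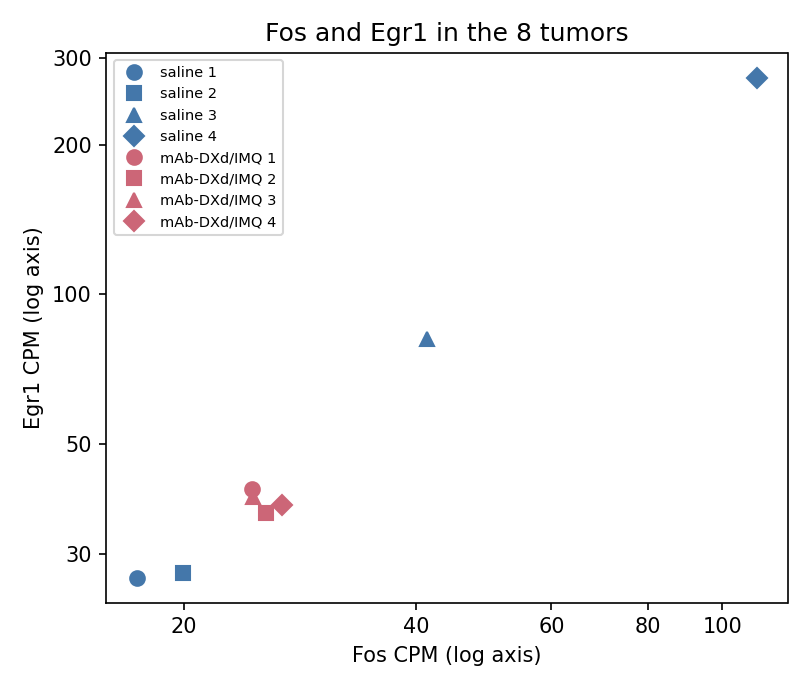
Egr1 against Fos (CPM, both axes log) in the 8 tumors, saline in blue and mAb-DXd/IMQ in red, with 1 symbol per tumor number. Saline 4 and saline 3 lie at the upper right, saline 1 and saline 2 at the lower left, and the 4 treated tumors between them (Fos 24.5 to 26.8 CPM, Egr1 36.3 to 40.6 CPM).

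Promoters are shown for the 4 members of the saline 4 group whose RefSeq entry (GRCm38.p6) starts within 30 bases of the start in the count table: Fos, Fosb, Jun and Junb. Entries were matched for 8 of 10 members, and Egr1 and Fosl1 had none, so they were not searched. Each run is the 250 bases before the start, 5′ to 3′ on the gene's strand, with motif matches in capitals: TGACG, the core of the CREB site, TGACNTCA, TGANTCA, the CArG box bound by serum response factor, and the EGR1 motif GCGTGGGCG, searched on both strands. TGACG lies inside TGACNTCA where N is G.
Fos (chr12:85473640-85473889, + strand): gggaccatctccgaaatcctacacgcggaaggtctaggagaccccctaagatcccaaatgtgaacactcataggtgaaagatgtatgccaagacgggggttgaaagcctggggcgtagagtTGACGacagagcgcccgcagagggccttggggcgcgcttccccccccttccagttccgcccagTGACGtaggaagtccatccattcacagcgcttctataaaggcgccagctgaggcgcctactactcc
Fosb (chr7:19310046-19310295, - strand): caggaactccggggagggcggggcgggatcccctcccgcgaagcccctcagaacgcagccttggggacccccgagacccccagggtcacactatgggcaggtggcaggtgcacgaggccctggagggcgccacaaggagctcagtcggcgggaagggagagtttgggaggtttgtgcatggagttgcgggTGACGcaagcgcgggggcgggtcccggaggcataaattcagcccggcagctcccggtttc
Jun (chr4:95052223-95052472, - strand): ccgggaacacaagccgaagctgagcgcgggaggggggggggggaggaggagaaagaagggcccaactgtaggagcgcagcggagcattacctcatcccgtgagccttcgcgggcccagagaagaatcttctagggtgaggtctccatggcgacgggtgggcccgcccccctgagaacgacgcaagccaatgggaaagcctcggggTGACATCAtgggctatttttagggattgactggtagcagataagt
Junb (chr8:84978749-84978998, - strand): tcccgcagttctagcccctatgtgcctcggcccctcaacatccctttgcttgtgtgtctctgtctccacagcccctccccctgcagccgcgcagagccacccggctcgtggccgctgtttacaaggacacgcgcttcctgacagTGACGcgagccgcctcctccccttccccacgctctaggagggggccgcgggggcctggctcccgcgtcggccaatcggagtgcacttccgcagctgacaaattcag
Fos holds TGACG at 129 and 66 bases before its start, Fosb at 60 and Junb at 106, while Jun holds TGACNTCA at 45. The motifs are not limited to this group, although the matches in other members lie in windows beyond the limit of 30 bases. For Atf3 and Maff, members highest in saline 1, TGACG was found 34706 bases (Atf3) and 899 and 1781 bases (Maff) from the start in the count table. Both of these Maff windows also hold TGACNTCA, and the nearer one GCGTGGGCG. The Maff window at the start in the count table holds none of the 5, nor do those of Fosl2 and Jund. Of 32851 promoter windows of the same length, 17.8% hold TGACG, 7.49% TGACNTCA, 6.75% TGANTCA, 1.47% a CArG box and 0.536% GCGTGGGCG. The last 3 motifs were not matched in the 4 windows shown, which says only that the letters are not there, and a match is no evidence that a factor binds.

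The 3 other Fos-family members differ in when they act: Fosb is an early partner like Fos, whereas Fosl1 and Fosl2 come later, last longer and lack a strong activation domain. Fosl2 measured 122, 119, 108 and 136 CPM in saline tumors 1 to 4 and 87.3, 106, 90.3 and 98.7 CPM in treated tumors 1 to 4. Every treated tumor was below every saline tumor, if narrowly between saline 3 and treated 2, and Fosl2 was the 1 member of 10 without overlap, where 7.10% of tested genes had groups apart in that direction. Its log2 fold change was -0.34 (SE 0.11, adjusted p 0.126), and it stayed between -0.40 and -0.26 over the alternatives.

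Fosl1, the member most often linked to invasive breast carcinoma, was 43.7, 23.4, 23.2 and 23.2 CPM in saline tumors 1 to 4 and 26.6, 27.2, 27.7 and 40.6 CPM in treated tumors 1 to 4. In each group 1 tumor, saline 1 and treated 4, was well above 3 tumors that lay close together. Its log2 fold change of 0.10 (SE 0.23, adjusted p 0.848) was 0.39 (SE 0.16, adjusted p 0.237) without saline 1, -0.014 with a gene length offset, -0.056 without treated 4 and -0.14 without saline 3 and saline 4. Fosb, the least abundant member, ranged from 3.75 to 8.92 CPM in saline and from 3.57 to 6.01 CPM in treated tumors, with a log2 fold change of -0.20 that was 0.11 without saline 4 and 0.077 without saline 3 and saline 4.

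Jun-family proteins pair with each other as well as with Fos proteins, and Junb and Jund are commonly weaker activators than Jun. Jun measured 135, 135, 190 and 317 CPM in saline tumors 1 to 4 and 158, 153, 90.8 and 138 CPM in treated tumors 1 to 4. Saline 4 was highest and saline 3 next, and the remaining saline tumors lay within the treated range. The log2 fold change was -0.52 (SE 0.27, adjusted p 0.326), -0.18 without saline 4 and -0.0033 without saline 3 and saline 4.

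Junb measured 416, 320, 428 and 605 CPM in saline tumors 1 to 4 and 378, 316, 252 and 276 CPM in treated tumors 1 to 4. Treated 1 lay above saline 2, so the groups overlap, although 3 saline tumors were above all treated ones. The log2 fold change was -0.53 (SE 0.20, adjusted p 0.175), -0.34 without saline 4 and -0.27 without saline 3 and saline 4. Junb shares 173 of its 2301 exonic bases with Prdx2 on the opposite strand, whose counts came to 96.0% of those of Junb, and Jun shares 232 of 3189 with the antisense gene Junos, at 7.52% of its counts. The labels leave it unclear whether libraries were strand-specific, so how far these neighbours enter the 2 counts was not tested. Jund, the family member usually held at a steady level, ranged from 27.6 to 45.9 CPM in saline and from 21.7 to 41.3 CPM in treated tumors (log2 fold change -0.11, adjusted p 0.812). Its direction turned without saline 1 (0.023) and without treated 3 (0.044).

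Atf3, a stress-induced factor that often represses as a homodimer, was 22.6 to 33.0 CPM in saline and 17.3 to 26.4 CPM in treated tumors (log2 fold change -0.27, adjusted p 0.406). It was -0.15 without saline 1, -0.17 without treated 3 and -0.44 without saline 3 and saline 4. Maff, a small Maf protein that pairs with factors of the oxidant response, was 28.8 to 43.6 CPM in saline and 24.5 to 40.6 CPM in treated tumors (log2 fold change -0.061, adjusted p 0.888). Its direction turned to 0.082 without saline 1 and 0.051 without treated 3. For both genes saline 1 was the highest and treated 3 the lowest of the 8 tumors, and the groups overlap. Treated 3 was the lowest tumor for 5 members.

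**Figure D3:**
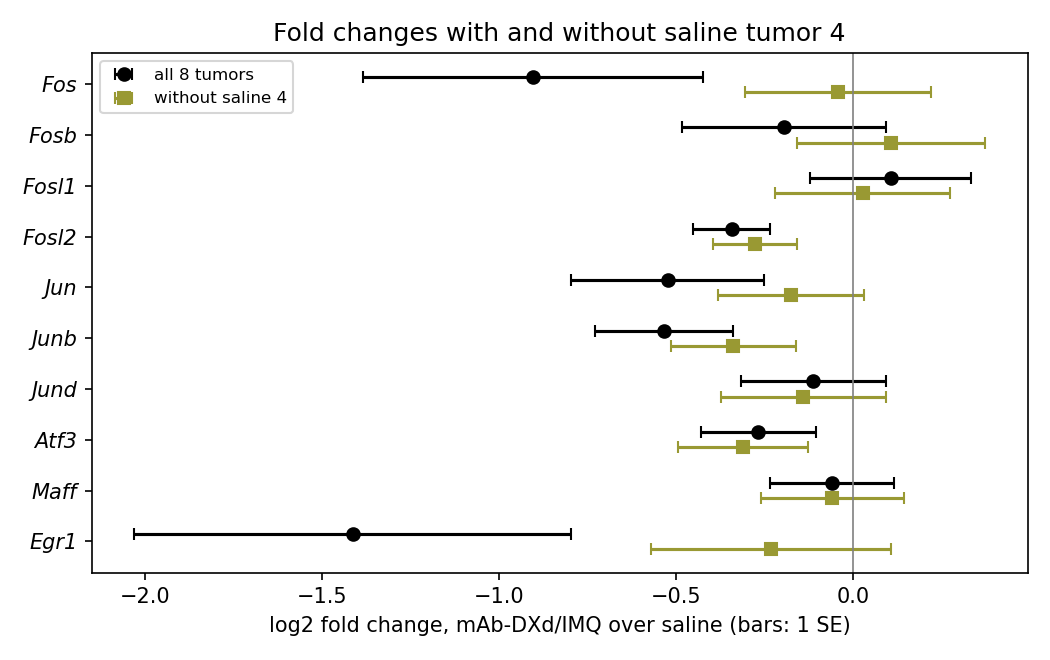
Log2 fold change of each member, mAb-DXd/IMQ over saline, with bars of 1 SE, from all 8 tumors (black circles) and without saline 4 (olive squares). Without that tumor Fos moves from -0.90 to -0.044 and Egr1 from -1.41 to -0.23, while Fosl2 moves from -0.34 to -0.28.

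Compared per length, as RPKM (CPM divided by gene length in kilobases), the order of mean levels in saline tumors was Junb (192 RPKM), Jun (60.9 RPKM), Egr1 (22.8 RPKM), Jund (21.6 RPKM), Fos (20.1 RPKM), Fosl1 (16.6 RPKM), Maff (13.04 RPKM), Fosl2 (12.5 RPKM), Atf3 (12.3 RPKM) and Fosb (0.920 RPKM). Among neighbours in that order, only Junb and Jun, and Atf3 and Fosb, had ranges that did not overlap. In treated tumors Junb (133 RPKM) and Jun (42.4 RPKM) led again and Fosb (0.805 RPKM) was again last. Fos (10.8 RPKM) stood at place 6 and Egr1 (8.56 RPKM) at place 9 there. The higher saline places of both rest on saline 4: without it, a choice made after seeing the data, Egr1 (10.1 RPKM) was at place 9 and Fos (11.2 RPKM) at place 8 in saline, and 3 of 10 members kept their place. Ranges of neighbours were separate between Junb and Jun, Jun and Jund, and Egr1 and Fosb.

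**Figure D4:**
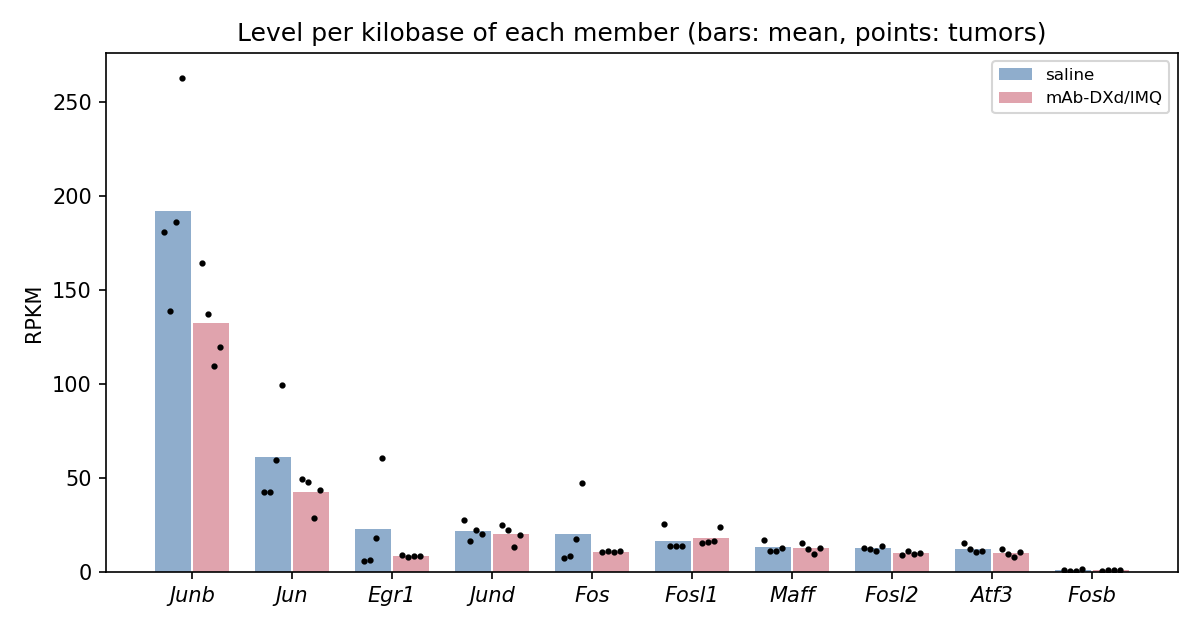
Level per kilobase (RPKM) of each member, bars at the mean of 4 tumors and points for single tumors, saline in blue and mAb-DXd/IMQ in red, ordered by the saline mean. Junb leads in both groups (192 and 133 RPKM) and Fosb is last (0.920 and 0.805 RPKM), and for Egr1 and Fos the saline bar is drawn up by saline 4.

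By Pearson correlation of log2 CPM over the 8 tumors, among 10750 genes other than the members, those most like Fos were Ier2 (r = 0.966), Txlng (r = 0.941), Btg2 (r = 0.928), Nr4a1 (r = 0.920) and Hist1h1c (r = 0.919). Ier2, Btg2 and Nr4a1 are immediate early genes themselves. Ier2 was 72.8, 72.4, 132 and 239 CPM in saline tumors 1 to 4 and 91.7, 86.4, 70.8 and 74.8 CPM in treated tumors 1 to 4, with saline 4 and saline 3 again above the rest. Its log2 fold change was -0.67 (adjusted p 0.3) and 0.16 without saline 3 and saline 4. Those most like Fosl1 were Klc1 (r = 0.919), Mafk (r = 0.918), Ppm1j (r = 0.914), Cep290 (r = 0.912) and Neil1 (r = 0.909). These are descriptions over 8 tumors, chosen as the top of many, and carry no p.

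Among 28 tested genes of a list of other immediate early genes (29 listed), 1 passed the thresholds lower and 0 higher. Over all tested genes 1.06% passed. The log2 fold change was below 0 for 20 genes and above 0 for 8, with a median of -0.21. Of the 28, 5 had unadjusted p under 0.05 (18.9% of all tested genes). The median was -0.015 without saline 4 and 0.016 without saline 3 and saline 4. The count of 5 was 10 without saline 1 and 9 with no filter on low counts. It was 3 without saline 4, without treated 1 or with limma-trend. The gene that passed was Egr2, a zinc finger factor of myeloid and other cells. It measured 27.8, 21.3, 27.3 and 31.3 CPM in saline tumors 1 to 4. Treated tumors 1 to 4 had 18.5, 15.4, 16.6 and 15.96 CPM. The groups do not overlap, and no saline tumor stood far from the others. Its log2 fold change was -0.70 (SE 0.14, adjusted p 0.0427), and the call was lost without saline 1, 3 or 4 or treated 2, 3 or 4 (adjusted p 0.0652, 0.112, 0.153, 0.0942, 0.0699 and 0.117). A replicate block, with or without the gene length offset, ended the Egr2 call too. Zfp36, which encodes a protein that destabilizes cytokine messages, was 49.9, 54.7, 110 and 176 CPM in saline and 37.1, 41.3, 42.2 and 45.4 CPM in treated tumors (log2 fold change -1.23, adjusted p 0.0891), without overlap. It passed without saline 1 (adjusted p 0.0466), with no filter on low counts (0.0341) and with DESeq2 (0.00474), and the log2 fold change was -0.78 without saline 4 and -0.34 without saline 3 and saline 4. The kinase phosphatase gene Dusp1 had 63.7 CPM in saline 4 and 16.4 to 25.8 CPM in the remaining 7 tumors (log2 fold change -0.84, -0.28 without saline 4, and -0.17 without saline 3 and saline 4). Nr4a3, an orphan nuclear receptor gene, was low throughout, at 2.70 to 5.17 CPM in saline and 1.21 to 2.32 CPM in treated tumors (log2 fold change -1.07, adjusted p 0.0824, and 0.00712 with DESeq2, where it passed). In the other direction, Ctgf, a secreted matrix protein gene, was 54.2 to 86.8 CPM in saline and 48.2 to 262 CPM in treated tumors (log2 fold change 0.91, adjusted p 0.271, and 0.27 without treated 3). Npas4 was at or under 1.59 CPM in every tumor (log2 fold change 1.20, adjusted p 0.498, and -0.22 without treated 3). Zfp36, Dusp1, Nr4a3, Ctgf and Npas4 were named after their values were seen. The 3 most abundant genes of the list were Klf6, Rhob and Myc, with log2 fold changes of -0.066, -0.30 and 0.25 and none past the thresholds. Klf6 came to 0.035 and Rhob to -0.19 without saline 4, and Myc to 0.092 without treated 3. Saline 4 held the highest value for 13 of the 28 genes.

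The AP-1 partner list holds other leucine zipper factors that pair with or compete with AP-1. It had 0 of 16 past the thresholds and 6 at unadjusted p under 0.05 (18.9% of all tested genes). The median log2 fold change was -0.29. In some alternatives 1 gene of the list passed, lower with treatment: no filter on low counts, a filter of 1 CPM in 4 tumors, DESeq2, and without saline 1. The most abundant were Mafg (log2 fold change -0.19), Atf4 (0.23) and Nfe2l2 (-0.26). Single tumors move these: Mafg was -0.026 without saline 1 and -0.058 without treated 1, and Nfe2l2 -0.14 without saline 2 and -0.16 without treated 4. Without saline 3 and saline 4, Mafg was -0.31 and Atf4 0.057. Atf1, Atf2, Atf7 and Creb1 were named after their values were seen, and in each of them every treated tumor was below every saline tumor, as in 7.10% of tested genes: Atf1 (log2 fold change -0.23, adjusted p 0.229), Atf2 (-0.35, 0.092), Atf7 (-0.53, 0.0784) and Creb1 (-0.40, 0.0662). Atf1 and Creb1 encode factors that bind the TGACG core, which 17.8% of all promoter windows hold. Any link between their levels and those of the members was not tested. Saline 4 was highest for 1 of these 16 genes, where it was highest for 8.02% of all tested genes. Saline 2 was highest for 8 of the 16, where it was highest for 14.6% of all tested genes.

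Of 20 upstream kinase and serum response factor genes, 0 passed both thresholds and 6 had unadjusted p under 0.05 (18.9% of all tested genes), with a median log2 fold change of -0.17. Without saline 3 and saline 4 the count of 6 was 3. Dusp4, a nuclear phosphatase that turns off MAP kinases and is itself induced by growth signals, was 72.6, 67.7, 70.8 and 64.5 CPM in saline tumors 1 to 4 and 49.6, 49.2, 47.1 and 49.7 CPM in treated tumors 1 to 4. The groups are well apart and each is tight, with a log2 fold change of -0.49 (SE 0.09, adjusted p 0.0301) that is under the fold limit. Its adjusted p stayed under 0.05 without treated 1 (0.0411) and was 0.058 to 0.108 without any other 1 tumor. With a gene length offset it was -0.58 (adjusted p 0.0293), just past that limit. It was named after its values were seen. Among the abundant genes, Dusp6 (adjusted p 0.265) and Elk3 (adjusted p 0.107), both lay at -0.33 on the log2 scale, and Dusp6 was -0.17 without saline 3 and saline 4.

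Known AP-1 target genes had 0 of 18 past the thresholds, 3 at unadjusted p under 0.05 (18.9% of all tested genes), and a median log2 fold change of 0.051, which lay between -0.054 and 0.11 over the alternatives. The count of 3 was 6 without treated 4. It was 5 without saline 3, without treated 2, with no filter on low counts, or with a replicate block and gene length offset together. The most abundant were Spp1 (log2 fold change -0.075), Ccnd1 (-0.53, adjusted p 0.11) and Cd44 (-0.28). Spp1 turned to 0.15 without treated 3, and Cd44 was -0.14 without saline 1. Plau, the urokinase gene, was 144 to 176 CPM in saline and 206 to 327 CPM in treated tumors (log2 fold change 0.69, adjusted p 0.0591), and Timp1, a metalloproteinase inhibitor gene, was 47.1 to 69.7 CPM in saline and 75.6 to 118 CPM in treated tumors (0.63, 0.0706). Both lie higher in every treated tumor than in any saline tumor, where 5.97% of tested genes had groups apart in that direction, and both were named after their values were seen. Ccnd1 was apart the other way, at 694 to 1061 CPM in saline and 519 to 668 CPM in treated tumors. Plau passed with upper quartile factors (adjusted p 0.0495), no filter on low counts (0.0374), a filter of 1 CPM in 4 tumors (0.0484) and DESeq2 (0.00362), and Timp1 with DESeq2 (0.0119).

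In a heat shock list of 8 chaperone genes, 1 passed the thresholds higher and 1 lower, where 1.06% of all tested genes passed. The log2 fold change was above 0 for 5 and below 0 for 3, with a median of 0.37. Of the 8, 6 had unadjusted p under 0.05 (18.9% of all tested genes). Hspa1a, an inducible chaperone gene, was 4.36, 6.07, 3.56 and 4.54 CPM in saline tumors 1 to 4 and 1.53, 1.73, 1.22 and 1.49 CPM in treated tumors 1 to 4. It fell by 1.63 on the log2 scale (SE 0.25, adjusted p 0.0201), with no overlap, and saline 4 was not its highest tumor. The call was lost without saline 3, saline 4 or treated 4 (adjusted p 0.0657, 0.0846 and 0.0694). A replicate block, with or without the gene length offset, ended this call and that of Hsph1 below. Hspa1b, the far more abundant near copy of Hspa1a, named after its values were seen, was 67.0, 41.6, 67.4 and 56.7 CPM in saline and 50.4, 41.0, 16.2 and 50.1 CPM in treated tumors, with overlap (log2 fold change -0.56, SE 0.30, adjusted p 0.341, and -0.30 without treated 3). Hsph1, a cofactor of that chaperone, was 48.8, 42.4, 53.3 and 43.9 CPM in saline and 71.2, 68.2, 93.2 and 67.6 CPM in treated tumors. It rose by 0.67 on the log2 scale (SE 0.13, adjusted p 0.0403), and the call was lost without any 1 of the 8 tumors (adjusted p 0.052 to 0.143). The most abundant, Hsp90aa1, Hspd1 and Hspe1, had log2 fold changes of 0.47, 0.40 and 0.34 and none passed. Hspe1 was 0.22 with a gene length offset. The largest positive log2 fold change of the list was that of Hspb1, a small heat shock protein gene named after its values were seen, at 1.35 to 5.66 CPM in saline and 7.79 to 11.1 CPM in treated tumors, without overlap (1.23, SE 0.37, adjusted p 0.116). It passed with DESeq2 (adjusted p 0.0156) and in no other alternative (adjusted p up to 0.463).

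In these bulk tumors, fewer cells of a type and less RNA per cell cannot be told apart. Of the cell type markers, T cell genes Cd4 and Cd8a were lower with treatment (log2 fold change -1.91 and -1.22, each at adjusted p 0.0201), as was the neutrophil gene Csf3r (-0.80, adjusted p 0.0402). Without saline 3, saline 4 or treated 4 the Cd4 and Cd8a calls were lost (adjusted p 0.0657 to 0.0846), and the Csf3r call was lost without any 1 tumor other than treated 1. The 3 T cell markers, led by Cd8a, summed to 36.8, 54.5, 54.2 and 48.8 CPM in saline and 24.2, 20.8, 15.2 and 20.4 CPM in treated tumors. The 3 neutrophil markers, led by S100a9, summed to 216, 79.95, 89.0 and 118 CPM and to 31.2, 45.5, 47.9 and 62.1 CPM. The 3 macrophage markers, led by Csf1r, summed to 179, 707, 368 and 438 CPM and to 314, 259, 348 and 215 CPM.

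Fibroblast markers (4 genes, led by Col1a1) summed to 2033, 2741, 4899 and 5187 CPM in saline tumors 1 to 4, so saline 3 and saline 4 were high there too, and to 3809, 3030, 5472 and 2008 CPM in treated tumors 1 to 4, where Fos hardly varied. Epidermal markers (6 genes, led by Krt14) summed to 202, 32.4, 146 and 98.5 CPM in saline and 215, 505, 223 and 101 CPM in treated tumors, and skeletal muscle markers (4 genes, led by Acta1) to 374, 36.4, 301 and 161 CPM and to 286, 62.0, 142 and 208 CPM. Krt14 made up most of the epidermal sum in each tumor, 208 of 215 CPM in treated 1, where Krt5 was 0.206 CPM. Krt1, a defining epidermal marker, had no counts in saline 2, saline 4, treated 1 and treated 4. The part of these cell types in the levels of the members was not tested.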

How the data were processed

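Whole 4T1 tumors, 4 from saline mice and 4 from mAb-DXd/IMQ mice, were profiled by bulk RNA sequencing of poly-A RNA. Per the labels, the authors aligned reads with tools named as HISAT2, HISAT and TopHat2 (versions not given). The deposited values are raw counts per gene, with 1 deposited gene length for each of 54532 genes. Labels name the genome build mm39, but 53499 of 54409 gene IDs shared with GENCODE M21 (98.3%) have the same start and end as in GRCm38, so coordinates here are read as GRCm38. Total counts per tumor were 45019927 to 69582375 in saline and 34591912 to 51625237 in treated tumors (exact permutation p = 0.171, two-sided, n = 4 and 4), and 3 counts correspond to 0.0439 to 0.0843 CPM.

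From the deposited counts, edgeR 4.0.16 in R 4.3.3 was run on all genes: filterByExpr (minimum count 10, minimum total 15), TMM factors, and a quasi-likelihood F test of treatment. Adjusted p (Benjamini-Hochberg) covers all 18511 tested genes, and a gene passed at adjusted p under 0.05 and absolute log2 fold change over 0.58. Standard errors are the log2 fold change over the root of F. CPM uses TMM-scaled totals, RPKM divides it by gene length, and correlations use log2 CPM with a prior count of 2, with genes of mean CPM of at least 8 other than the members as candidates for likeness. Members and gene lists were chosen with earlier results of these data known. Genes named are the members, every list gene past the thresholds with up to 3 of the most abundant of each list, the 5 genes most like Fos and Fosl1, and markers past the thresholds, plus those said to be named after their values were seen.

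Alternatives were other size factors (RLE, upper quartile, totals alone), other filters, DESeq2 1.42.0, limma-trend 3.58.1, a replicate block, a gene length offset (spline with 5 degrees of freedom), the adjusted p alone, and each tumor left out in turn. Leaving out both saline 3 and saline 4 was added after seeing the data. The fitting code was tested on simulated data, where every fit recovered the sizes of the changes. DESeq2 called more unchanged genes there than the other fits, and after it missed the limit on false calls that they met, that limit was no longer asked of it. Motifs were searched by exact letters in RefSeq promoter windows of GRCm38.p6. Figures were drawn with matplotlib under Python 3.11.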

Additional observations from a re-analysis of the deposited data

Results flagged for a closer look

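A tumor was singled out where its gap to the nearest of its group, divided by the whole range of the group, was above Dixon's critical value for 4 samples. Of 108 groups of 4 checked (every gene named with a fold change, in each treatment group), 10 met this. Chance flags about 1 in 20 groups, but that rate does not hold for genes picked by their values: Creb1, Dusp1, Hspb1 and Npas4 were named after their values were seen, and Nr4a1 and Klc1 were chosen as most like members whose high tumor they share. Fosl1 met the rule in both groups: saline 1 at 43.7 CPM (gap over range 0.99) and treated 4 at 40.6 CPM (0.923) were each far above the rest of their group. Klc1, the gene most like Fosl1, was far above the rest in saline 1 as well (151 CPM, 0.921). Saline 4 was far above the other saline tumors for Nr4a1 (30.4 CPM, 0.912) and Dusp1 (63.7 CPM, 0.842). For Fos and Egr1 the same tumor was highest, but saline 3 lay part of the way up and the gap stayed under the limit. Treated 3 was far above for Creb1 (82.2 CPM, 0.891), Hsph1 (93.2 CPM, 0.858) and for the scarce Npas4 (1.59 CPM, 0.842), and treated 1 was far below for Csf3r (14.996 CPM, 0.87) and far above for Hspb1 (11.1 CPM, 0.847).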

How the results depend on the processing

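Under every alternative run, 0 of 10 members passed the thresholds. The count of all genes past them was 197, and it was 358 with no filter on low counts, 787 with DESeq2 (which called more unchanged genes than the other fits on simulated data), 122 with a gene length offset, 2 with both saline 3 and saline 4 left out, and 10 to 203 when 1 tumor was left out at a time. A replicate block gave 14, also with the length offset. Correlations between tumors of the same number, after group means were taken out, were -0.17, -0.055, 0.079 and -0.067, so the numbers did not pair tumors. Of 1025 alternative values for single genes, 927 kept their direction and side of the thresholds, 50 lost the call, 11 gained it and 37 changed sign. The 11 gained calls were Plau with upper quartile factors, with either other filter and with DESeq2, Zfp36 with no filter, with DESeq2 and without saline 1, Timp1, Nr4a3 and Hspb1 with DESeq2, and Dusp4 with the gene length offset. Members at unadjusted p under 0.05 numbered 3, and 1 to 6 over the alternatives. The largest moves come from leaving tumors out. With saline 3 and saline 4 left out, log2 fold changes that changed sign were Egr1 0.50, Fos 0.44, Fosb 0.077, Fosl1 -0.14, Hist1h1c 0.14, Ier2 0.16, Klf6 0.062, Nr4a1 0.13, Txlng 0.16, Cep290 -0.12 and Neil1 -0.037. The gene length offset turned Fosl1 to -0.014 and Neil1 to -0.090, and with the replicate block as well Neil1 was -0.086 and Txlng 0.00012. Cep290, near 0 in every fit, was -0.0014 with RLE factors, -0.0028 with no filter and -0.0015 with DESeq2. Ranges when 1 tumor was left out, for genes that changed sign, were Fosb -0.36 to 0.11, Fosl1 -0.056 to 0.39, Jund -0.24 to 0.044, Maff -0.19 to 0.082, Klf6 -0.16 to 0.035, Nr4a1 -0.38 to 0.11, Spp1 -0.27 to 0.15, Txlng -0.16 to 0.063, Cep290 -0.058 to 0.11, Neil1 -0.050 to 0.12, Npas4 -0.22 to 1.93 and Ppm1j -0.021 to 0.26. By CPM without length, 6 of 10 members kept their place in the order of saline levels. By RPKM with saline 1, 2, 3 or 4 left out, chosen after seeing the data, 6, 8, 10 and 3 of 10 kept it. By Spearman, 2 of the 5 genes most like Fos and 3 of those most like Fosl1 stayed in the list. Other causes of these moves were not tested. Npas4 was too low to be tested with the filter of 1 CPM in 4 tumors.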

Other observations

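Mitochondrial RNA made up 2.40% to 2.52% of counts in saline tumors and 1.77% to 3.61% in treated tumors (exact permutation p = 0.429, two-sided, n = 4 and 4). Endothelial markers (3 genes, led by Pecam1) summed to 71.7, 174, 121 and 130 CPM in saline tumors 1 to 4 and to 166, 145, 163 and 137 CPM in treated tumors 1 to 4, with overlap. Erythroid markers (2 genes, led by Hbb-bs) summed to 15.2, 45.1, 19.0 and 32.8 CPM and to 66.7, 29.3, 53.2 and 37.8 CPM. Adipocyte markers (2 genes, led by Adipoq) were at or under a sum of 1.95 CPM in every tumor, and the leukocyte marker Ptprc was 119 to 193 CPM over the 8 tumors.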
